A study of Mus musculus with 2 samples.

Results

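The 9 genes of regulatory T cells and immune checkpoints studied here were read out cell by cell in mouse spleen, as the rows of Foxp3, Il2ra, Ikzf2, Ctla4, Tnfrsf18, Tnfrsf4, Pdcd1, Lag3 and Tigit. These 9 symbols were chosen by name, not by their values, from the 30457 genes listed in either of the 2 count tables, and all 9 had reads in both tables. Spleens were from C57BL/6J mice, female and aged 10 weeks, that carried Lewis lung carcinoma (LLC), a transplantable mouse lung tumour line, under the skin. Every mouse had received 200 μg of an antibody against CD4 on day 5 and again on day 9, and spleens were taken on day 12. After lysis of red cells, a pool of 3 spleens was kept frozen until use, and 2000 thawed cells went onto 1 BD Rhapsody cartridge, a device in which single cells settle into wells with barcoded beads. The beads were then divided. One share was amplified by TAS-Seq, which adds a tail to the cDNA with terminal transferase, and the other with the BD WTA kit, which relies on random primers. With 1 library from each method, cells are not replicates, no test between the methods was possible, and all intervals below cover counting error at most. No spleen without the antibody or without the tumour was part of the series.

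Regulatory T cells are CD4 T cells that hold back immune responses. Foxp3 is the transcription factor that defines the lineage, Il2ra encodes CD25, which gives the interleukin-2 receptor its high affinity, and Ikzf2 encodes the zinc-finger factor Helios. Ctla4 encodes a receptor that competes with CD28 for CD80 and CD86, while Tnfrsf18 and Tnfrsf4 encode GITR and OX40, receptors of the tumour necrosis factor family that are high on regulatory cells and rise on other activated T cells. Pdcd1 encodes PD-1, Lag3 encodes a CD4-related receptor that binds MHC class II, and Tigit encodes a receptor that competes with CD226 for the poliovirus receptor. These inhibitory receptors are carried by regulatory, activated and chronically stimulated T cells, and some of them also by NK cells.

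The TAS-Seq table held 736 barcodes and 38656790 reads, and 31608259 reads in 716 barcodes made up the BD WTA table. No barcode was shared. A filter of at least 500 genes and at most 25% mitochondrial reads left 732 and 708 cells, with medians of 46515.5 and 38154 reads per barcode before the filter. Cells were thinned at random to 20000 reads each so that every cell had the same read total, which left out 25 TAS-Seq and 63 BD WTA cells as too shallow. The counts were made without molecular identifiers, so a read count need not mean the same in both methods. A gene was called positive in a cell at 5 or more of those reads and detected at 1 or more. Cells were sorted by marker reads into a T gate (265 TAS-Seq and 261 BD WTA cells), a B gate (394 and 324) and an NK gate (17 and 22), with 3 and 4 mixed cells and 28 and 34 cells in no gate. These are gates on reads, not annotated cell types. The summed level of 6 T-cell markers was 4823 CPM (reads per 1000000 reads of the pooled cells) in T-gate against 74.5 in B-gate cells of TAS-Seq, and 6333 against 66.7 in BD WTA. Within the T gate, 53 TAS-Seq and 60 BD WTA cells were positive for Cd4 alone, 119 and 109 for Cd8a or Cd8b1, 3 and 2 for both, and 90 in each library for neither. Cd4 was positive in 21.1% (95% interval 16.4 to 26.6) and 23.8% (18.7 to 29.4) of T-gate cells and in 0 of 394 and 0 of 324 B-gate cells. The last group of T cells, without 5 reads of either coreceptor, is called the neither gate below, and 30 TAS-Seq and 12 BD WTA cells of its 90 had at least 1 Cd4 read before thinning.

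Over all cells, each of the 9 genes was found in few cells. Before thinning, Tnfrsf18 had reads in 114 TAS-Seq and 48 BD WTA cells, Ikzf2 in 45 and 37, Il2ra in 44 and 24, Ctla4 in 34 and 19, Tnfrsf4 in 28 and 11 and Foxp3 in 15 and 9. The 3 inhibitory receptors were rarer still, with Pdcd1 in 4 and 1 cells, Lag3 in 18 and 16 and Tigit in 16 and 17. A handful of cells held most of the reads of most of the genes. The 5 richest cells carried 85.1% and 85.3% of the Foxp3 reads, 58.7% and 80.3% of the Ctla4 reads, and all Pdcd1 reads in both libraries. Tnfrsf18 was the most spread, with 18.3% and 31.8% of its reads in the 5 richest cells. At 20000 reads per cell the positive cells numbered 7 and 8 for Foxp3, 16 and 16 for Il2ra, 19 and 16 for Ikzf2, 10 and 10 for Ctla4, 40 and 24 for Tnfrsf18, 10 and 6 for Tnfrsf4, 1 and 1 for Pdcd1, 2 and 3 for Lag3 and 2 and 1 for Tigit. Without thinning, 8 and 8 cells had 5 Foxp3 reads and 71 and 38 had 5 Tnfrsf18 reads.

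Pooled over all cells, each of the 6 regulatory genes differed by less than 2-fold between the libraries. The level of Foxp3 was 11.3 CPM (10.3 to 12.4, exact Poisson interval) in TAS-Seq and 12.1 (10.9 to 13.4) in BD WTA, a log2 ratio of -0.10. Poisson intervals take each read as independent. Reads of 1 cell counted without molecular identifiers need not be, so these intervals can be too narrow and leave out the spread between cells. Il2ra stood at 21.5 and 15.2 CPM (log2 0.50), Ikzf2 at 28.4 and 30.8 (log2 -0.12), Tnfrsf18 at 41.6 and 28.0 (log2 0.57, and 1.29 in T-gate cells alone) and Tnfrsf4 at 9.93 and 9.15 (log2 0.12). Ctla4 leaned furthest among these, at 10.2 against 19.4 CPM and a log2 ratio of -0.92, with 37.9% of its BD WTA reads in 1 cell. That ratio was -1.0 under TMM scaling, but 0.14 without the 5 richest cells of each library, 0.17 as a mean of the CPM of each cell and -0.17 in T-gate cells. Among the 8 genes that reached 1 CPM and 10 cells in either library, Lag3 was 2-fold or more apart, at 1.92 CPM in TAS-Seq and 4.38 in BD WTA, and 26.1% of all 16030 genes of that level were as far apart. Lag3 leaned the other way in T-gate cells alone, where the log2 ratio was 2.23 on few reads. Tigit was at 1.61 and 2.76 CPM. Pdcd1, which did not reach 10 cells, was at 0.752 and 4.86 CPM, and all 153 BD WTA reads came from a single cell.

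**Figure D1:**
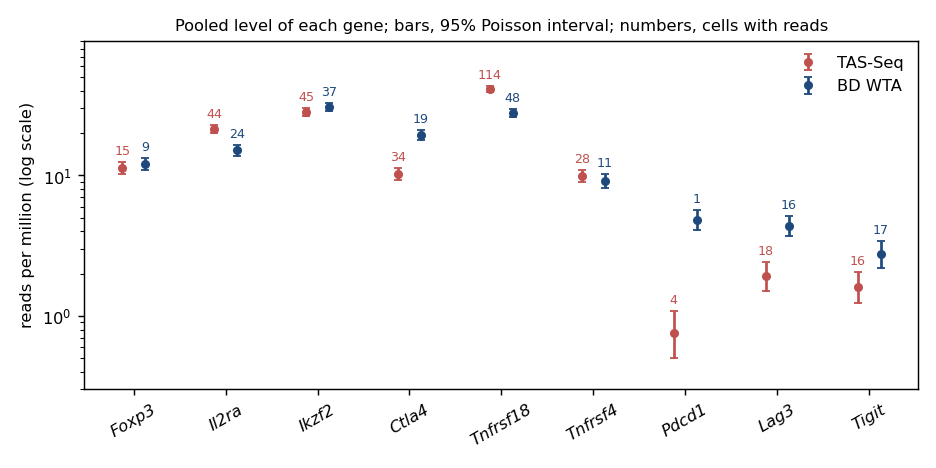
Pooled level of each gene in CPM, on a log axis, in all filtered cells before thinning (TAS-Seq red, BD WTA blue). Bars are exact Poisson 95% intervals, which take each read as independent and can be too narrow. The number over each point is the count of cells with reads. The Foxp3 points at 11.3 and 12.1 CPM thus rest on 15 and 9 cells and the BD WTA point of Pdcd1 on 1 cell.

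The comparison of cell shares between the methods depended on the read minimum. At 1 read, Tnfrsf18 was detected in 12.6% of TAS-Seq and 6.67% of BD WTA cells, and TAS-Seq had the larger share for 5 of 8 genes tested, those read in 5 or more cells of either library, and for 88.5% of all 18473 tested. At 5 reads, Tnfrsf18 was positive in 5.66% (4.07 to 7.63) and 3.72% (interval up to 5.49), and 4 of the 8 had the larger TAS-Seq share against 51.6% of all 15797 genes. Il2ra, Ikzf2 and Ctla4 were positive in 2.26%, 2.69% and 1.41% of cells in TAS-Seq and 2.48%, 2.48% and 1.55% in BD WTA, so that these shares were close at the higher minimum. Single reads of a T-cell gene also occurred outside the T gate. In the B gate, a Cd4 read was found in 11 of 394 cells (2.79%) in TAS-Seq and 0 of 324 in BD WTA. A Cd8a read was found in 26 and 0 of these cells and a Cd8b1 read in 41 and 12. At 5 reads Cd8b1 was left in 0 TAS-Seq and 4 BD WTA B-gate cells, so the higher minimum did not clear every gene. Results below therefore use 5 reads, with B-gate cells, whose median unthinned depth was 43190 and 37397 reads against 53223 and 42801 in the T gate, as the background.

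Positive cells of Foxp3, Il2ra, Ikzf2 and Ctla4 lay mainly in the T gate. For Tnfrsf18 the T gate held 25 of 40 positive cells in TAS-Seq and 10 of 24 in BD WTA, and for Tnfrsf4 5 of 10 and 4 of 6. Foxp3 was positive in 6 TAS-Seq T-gate cells (2.26%, 0.835 to 4.86) and 8 BD WTA ones (3.07%, 1.33 to 5.95), and in 0 of 394 and 0 of 324 B-gate cells, which allows a share of up to 0.761% and 0.926% (3 cells of the total, the limit given below for every count of 0). Il2ra was positive in 12 (4.53%, 2.36 to 7.78) and 14 (5.36%, 2.96 to 8.84) T-gate cells against 3 and 1 B-gate cells. Ikzf2 was positive in 16 (6.04%, 3.49 to 9.62) and 15 (5.75%, 3.25 to 9.30) against 1 and 0. The T-gate and B-gate intervals of Il2ra and of Ikzf2 were apart in both libraries, while those of Foxp3 were apart in BD WTA and overlapped in TAS-Seq, where the exact B-gate interval ran up to 0.932%. Ctla4 was positive in 9 (3.40%, 1.57 to 6.35) and 8 T-gate cells against 0 and 1, with intervals apart in TAS-Seq only. Tnfrsf4, with 5 and 4 against 3 and 1, had overlapping intervals in both. Tnfrsf18 differed from the others in its breadth. It was positive in 25 TAS-Seq T-gate cells (9.43%, 6.20 to 13.6) and 10 BD WTA ones (3.83%, 1.85 to 6.93). In the B gate it was positive in 9 (2.28%, 1.05 to 4.29) and 6 cells (1.85%, 0.683 to 3.99), with intervals apart in TAS-Seq only. The highest share of Tnfrsf18 was in the NK gate, with 5 of 17 cells (29.4%, 10.3 to 56.0) and 5 of 22 (22.7%, 7.82 to 45.4), an interval that overlapped that of the T gate in TAS-Seq and lay above it in BD WTA.

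**Figure D2:**
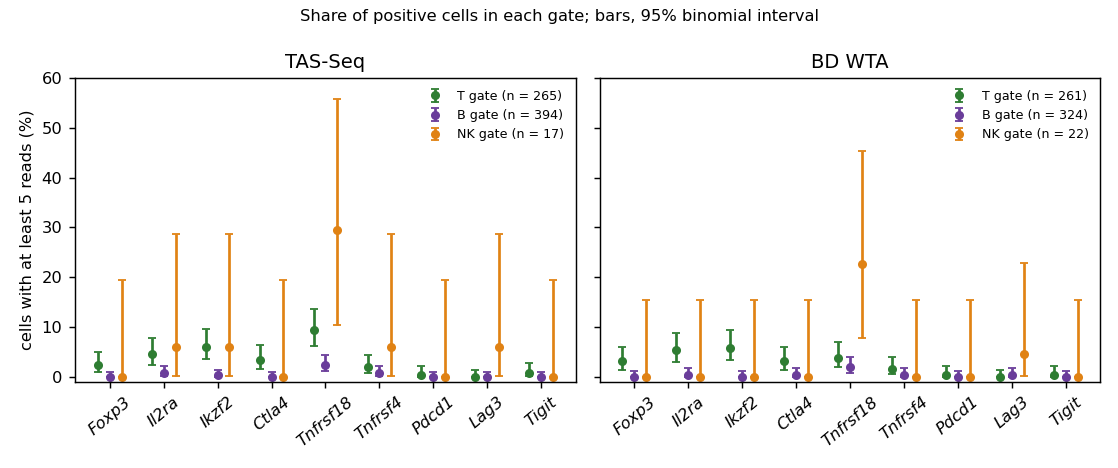
Share of cells with at least 5 reads of each gene, in percent, in the T gate (green), B gate (purple) and NK gate (orange) of each library at 20000 reads per cell, with exact binomial 95% intervals. The T-gate points of Foxp3 stand at 2.26% and 3.07% over B-gate points at 0, and the NK gate, with 17 and 22 cells, has the highest Tnfrsf18 points at 29.4% and 22.7%.

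In pooled level, the 6 genes were at least 2-fold higher in T-gate than in B-gate cells in both libraries, out of the 6 that reached 10 CPM in either gate, where 9.35% of 10056 genes in TAS-Seq and 13.9% of 9851 in BD WTA were. All but Tnfrsf18 were under 10 CPM in the B gate and so reached that level through the T gate alone, where they had to be the higher, and the count is a description. Foxp3 was at 29.3 CPM in T-gate and 0.254 in B-gate cells of TAS-Seq, and at 39.3 and 0 in BD WTA, which is at least 84.8-fold higher against a floor of 3 reads over the gate. Ikzf2 was at 77.4 against 1.40 and 61.7 against 0.154 CPM, and Il2ra at 52.5 against 7.49 and 29.1 against 4.17. Ctla4 was at 22.8 against 1.78 and 22.8 against 4.78, Tnfrsf18 at 64.0 against 15.5 and 33.5 against 12.7, and Tnfrsf4 at 14.9 against 3.93 and 15.1 against 1.85. The median log2 difference of the 6 was 3.25 and 2.92, against -0.10 and -0.05 over all genes. These levels rested on single cells. When the 5 richest cells of each gene were left out, 3 genes in TAS-Seq and 2 in BD WTA still met both the 10 CPM minimum and the 2-fold rule. A gene that fell under 10 CPM was not counted, whatever its ratio.

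**Figure D3:**
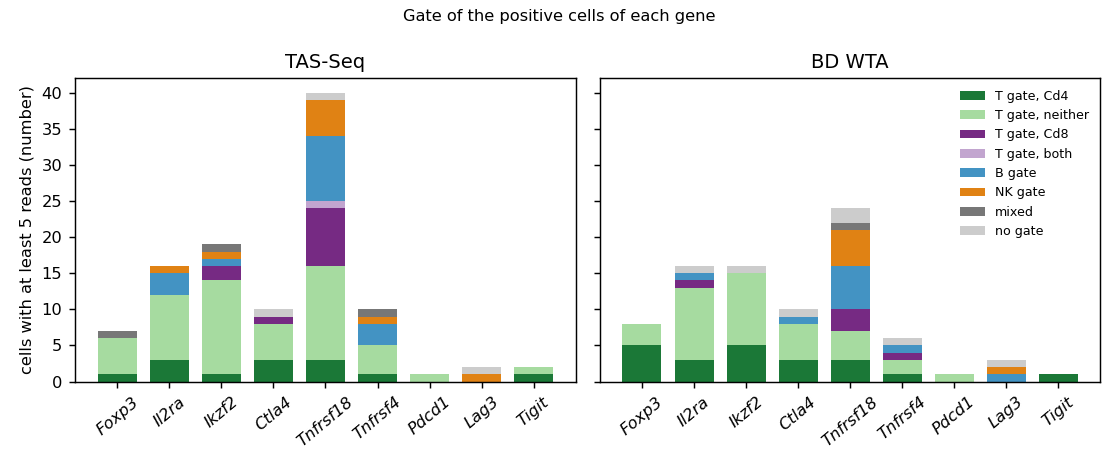
Number of cells with at least 5 reads of each gene at 20000 reads per cell, stacked by gate, for TAS-Seq (left) and BD WTA (right). The T-gate parts are split by Cd4 and Cd8 reads, and the light green neither part holds 9 of 16 and 10 of 16 Il2ra-positive cells and 13 of 19 and 10 of 16 Ikzf2-positive cells.

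After the CD4 antibody, most T cells positive for Il2ra, Ikzf2 or Ctla4 had fewer than 5 reads of both Cd4 and Cd8. Of the Il2ra-positive T-gate cells, 9 of 12 in TAS-Seq and 10 of 14 in BD WTA were in the neither gate, with 3 and 3 in the Cd4 gate and 0 and 1 in the Cd8 gate. For Ikzf2 the neither gate held 13 of 16 and 10 of 15, the Cd4 gate 1 and 5, and the Cd8 gate 2 and 0. Ctla4 was split 5 to 3 between neither and Cd4 in each library, with 1 Cd8 cell in TAS-Seq. Tnfrsf18 was the only gene of the 6 with more than 2 Cd8-gate cells in a library, at 8 of 25 in TAS-Seq and 3 of 10 in BD WTA, with 13 and 4 in the neither gate and 3 and 3 in the Cd4 gate. Foxp3 was divided 5 neither to 1 Cd4 in TAS-Seq and 3 to 5 in BD WTA, and Tnfrsf4 had 4 and 2 neither cells of 5 and 4. Counting any of the 9 genes, 26 of 90 neither cells of TAS-Seq were positive (28.9%, 19.8 to 39.4), against 8 of 53 Cd4-gate cells (15.1%, 6.75 to 27.6) and 10 of 119 Cd8-gate cells (8.40%, 4.10 to 14.9). BD WTA gave 23 of 90 (25.6%, 16.9 to 35.8), 9 of 60 (15%, 7.10 to 26.6) and 5 of 109 (4.59%, 1.51 to 10.4). The neither and Cd8 intervals did not overlap in either library, while the Cd4 interval overlapped both. With every spleen treated, the part of the antibody in these shares was not tested.

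The neither gate was made up mainly of cells with RNA of the alpha-beta T-cell receptor. The constant gene Trac, itself among the markers of the T gate, had 5 or more reads in 75 of its 90 TAS-Seq and 77 of its 90 BD WTA cells, and constant genes of the gamma-delta receptor were positive in 5 of 90 in each. None of the 13 Ikzf2-positive neither cells of TAS-Seq and 2 of the 10 of BD WTA had the gamma-delta genes. Cd4 reads under the minimum were part of the picture in TAS-Seq, where 2 of the 5 Foxp3-positive neither cells had a Cd4 read before thinning, 1 of them with at least 5. In BD WTA, 0 of 3 had one.

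Set in the order of the coreceptor classes, pooled levels were higher in Cd4-gate than in Cd8-gate cells for 4 of 6 genes in TAS-Seq and 6 of 6 in BD WTA by the 2-fold rule, against 16.7% and 22.9% of all genes. Tnfrsf18 was the only one over 10 CPM in the Cd8 gate, and the others reached that level through the Cd4 gate, so this count is a description too. Foxp3 was at 17.9 CPM in Cd4-gate and 0 in Cd8-gate cells of TAS-Seq, and at 108 and 0 in BD WTA. Il2ra was at 67.0 against 0.420 and 40.8 against 2.29, and Ctla4 at 29.3 against 5.04 and 55.8 against 0.917. The genes that did not pass in TAS-Seq were Ikzf2, at 11.3 against 7.56 CPM, and Tnfrsf18, at 47.2 against 44.1, while BD WTA gave 90 against 3.21 and 54.2 against 17.4. Foxp3 had reads in 1 and 5 Cd4-gate cells, Il2ra in 3 and 4, Ctla4 in 4 and 3 and Tnfrsf4 in 1 and 2, so these levels rest on at most 5 cells each. Leaving out the 5 richest cells of each gene empties such groups. None of the 6 then met both the 10 CPM minimum and the 2-fold rule in either library.

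Foxp3 was positive in a minority of Cd4-gate cells, and no untreated spleen was at hand to set that share against. In TAS-Seq 1 of 53 Cd4-gate cells was Foxp3-positive (1.89%, 0.0478 to 10.1), and in BD WTA 5 of 60 (8.33%, 2.76 to 18.4), with overlapping intervals. The median of 20 other random thinnings was 3.51% and 8.13%. The neither gate had 5 of 90 (5.56%, 1.83 to 12.5) and 3 of 90 (3.33%, 0.693 to 9.43), and the Cd8 gate 0 of 119 and 0 of 109, which allows a share of up to 2.52% and 2.75%. Read the other way, 1 of 7 Foxp3-positive cells of TAS-Seq had 5 Cd4 reads (14.3%, 0.361 to 57.9) and 5 of 8 in BD WTA (62.5%, 24.5 to 91.5), where the median of the other thinnings was 28.6% and 62.5%. Among T-gate cells without Foxp3, Cd4 was positive in 55 of 259 (21.2%) and 57 of 253 (22.5%), and the intervals of Foxp3 cells and other T cells overlapped in both libraries. For the other genes, Cd4 was positive in 3 of 12 and 3 of 14 Il2ra-positive T cells, 1 of 16 and 5 of 15 Ikzf2-positive ones, 3 of 9 and 3 of 8 Ctla4-positive ones and 4 of 25 and 3 of 10 Tnfrsf18-positive ones. These shares ran from 6.25% to 37.5%, around the 21.1% and 23.8% of the whole T gate.

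The 14 Foxp3-positive T-gate cells were then looked at one by one. Foxp3 had 43, 28, 25, 21, 19 and 19 reads in the 6 TAS-Seq cells, and 59, 38, 35, 28, 16, 14, 9 and 6 in the 8 BD WTA cells. Cd4 had 3, 0, 0, 0, 0 and 20 reads in the same TAS-Seq cells and 27, 0, 17, 0, 26, 19, 0 and 43 in the BD WTA cells. Cd4 was thus either clearly present or nearly absent. No cell had a read of Cd8a, Cd8b1 or Trdc, the constant gene of the delta chain. Ctla4 had 9, 8, 7, 0, 26 and 5 reads and 8, 0, 0, 9, 13, 0, 0 and 46. Il2ra had 0, 20, 1, 24, 13 and 49 reads and 26, 3, 0, 0, 12, 0, 6 and 4. Of the 14 cells, 13 were positive for at least 1 other gene of the 9 and 9 for at least 2. Ctla4 was positive in 9, Il2ra in 7, Ikzf2 in 6, Tnfrsf18 in 5, Tnfrsf4 in 3 and Tigit in 1, while Pdcd1 and Lag3 were positive in none. The cell with most of them, in BD WTA, had 6 reads of Foxp3, 43 of Ikzf2, 46 of Ctla4, 7 of Tnfrsf18, 9 of Tnfrsf4 and 9 of Tigit, next to 43 of Cd4. The remaining Foxp3-positive barcode, in TAS-Seq, was in the mixed gate with both T and B markers, and Scrublet, a doublet caller, marked it. Its 7 Foxp3 reads stood beside 21 reads of Tnfrsf4, and it is left out of the contrasts.

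**Figure D4:**
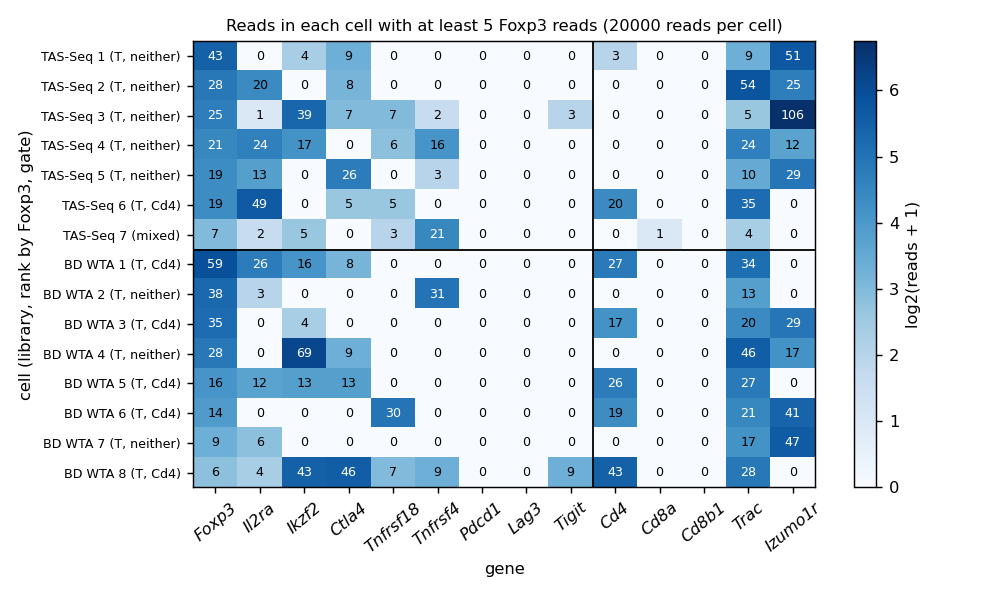
Reads of each gene (columns) in the 15 cells with at least 5 Foxp3 reads (rows, 7 TAS-Seq over 8 BD WTA), at 20000 reads per cell, with shade for log2(reads + 1) and gate in the row label. Ctla4, Il2ra and Ikzf2 fill many of the rows, the columns of Pdcd1 and Lag3 are at 0 throughout, and Cd4 has 5 or more reads in 1 TAS-Seq and 5 BD WTA rows.

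To see what the Foxp3 cells shared beyond Foxp3, they were set against T-gate cells with 0 Foxp3 reads. Only 1 TAS-Seq Foxp3 cell was in the Cd4 gate, so Cd4-gate and neither cells were combined, a choice made after the counts were seen, with 6 against 137 cells in TAS-Seq and 8 against 142 in BD WTA. Ctla4 stood out most. It was positive in 5 of 6 Foxp3 cells (83.3%, 35.9 to 99.6) and 3 of 137 others (2.19%, 0.454 to 6.27) in TAS-Seq, and in 4 of 8 (50.0%, 15.7 to 84.3) and 4 of 142 (2.82%, 0.773 to 7.06) in BD WTA. Il2ra was positive in 4 of 6 (66.7%, 22.3 to 95.7) against 8 of 137 (5.84%, 2.55 to 11.2), and in 3 of 8 (37.5%, 8.52 to 75.5) against 10 of 142 (7.04%, 3.43 to 12.6), where the intervals overlapped in BD WTA and not in TAS-Seq. Ikzf2 was positive in 2 of 6 against 12 of 137, and in 4 of 8 (15.7 to 84.3) against 11 of 142 (7.75%, 3.93 to 13.4), where they were apart in BD WTA and not in TAS-Seq. Tnfrsf18 had 3 of 6 against 13 of 137 and 2 of 8 against 5 of 142. In pooled level, Ctla4 was at 458 against 19.7 CPM and 475 against 14.4, and Il2ra at 892 against 62.0 and 319 against 33.8. Ikzf2 was at 500 against 121 and 906 against 58.5, and Tnfrsf4 at 175 against 20.1 and 250 against 9.86. Of the 8 genes other than Foxp3, 6 reached 10 CPM in TAS-Seq, all at least 2-fold higher in Foxp3 cells, and 7 in BD WTA, 6 of them higher. With so few cells 30.6% of all genes in TAS-Seq and 25.2% in BD WTA were called higher as well, and a gene that reached 10 CPM only through the Foxp3 cells had to differ, so these counts are a description. In the Cd4 gate of BD WTA alone, 5 against 55 cells, 6 of the 6 genes that reached 10 CPM were higher, against 38.3% of all genes. Without the 5 richest cells of each gene, 1 met both the 10 CPM minimum and the 2-fold rule.

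**Figure D5:**
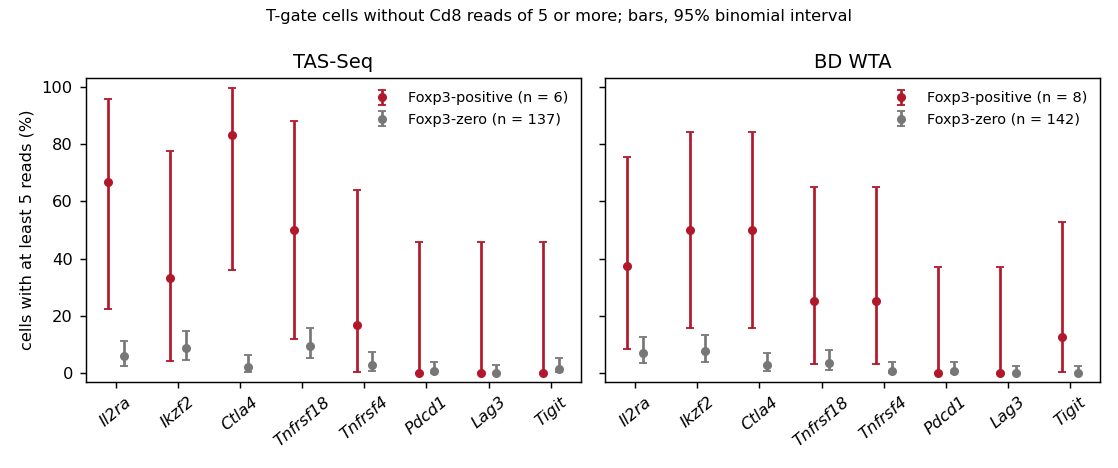
Share of cells with at least 5 reads of each of the 8 other genes, in percent, in Foxp3-positive cells (red, n = 6 and 8) and Foxp3-zero cells (grey, n = 137 and 142) of the T gate outside the Cd8 classes, with exact binomial 95% intervals. The Ctla4 intervals of the groups are apart in both libraries, those of Il2ra in TAS-Seq and those of Ikzf2 in BD WTA.

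Start-site sequence is given for Foxp3 and for Ctla4 and Il2ra, the genes most often positive in Foxp3-positive T-gate cells, from RefSeq on build GRCm38.p6. Each run is the 250 bases before an annotated start, on the plus strand, and 7 of the 9 genes matched the table, Foxp3 with 2 starts. Capitals mark a match, on either strand, to a searched motif. TATAAA, the core box bound by the TATA-binding protein, is in 12.4% of all 32851 promoter windows of this length. The STAT factor motif TTCNNNGAA is in 7.02% and the NFAT motif GGAAAA in 20.4%. The Runx motif TGTGGT and the forkhead motif GTAAACA, in 14.0% and 3.17% of windows, had no match in these 4.
Foxp3, chrX:7579426-7579675: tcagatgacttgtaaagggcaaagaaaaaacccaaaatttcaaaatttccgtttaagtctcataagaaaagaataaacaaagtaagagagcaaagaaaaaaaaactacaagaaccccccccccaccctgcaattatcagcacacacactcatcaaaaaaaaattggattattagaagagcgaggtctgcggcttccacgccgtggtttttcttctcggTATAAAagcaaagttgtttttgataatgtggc
Foxp3, chrX:7580233-7580482: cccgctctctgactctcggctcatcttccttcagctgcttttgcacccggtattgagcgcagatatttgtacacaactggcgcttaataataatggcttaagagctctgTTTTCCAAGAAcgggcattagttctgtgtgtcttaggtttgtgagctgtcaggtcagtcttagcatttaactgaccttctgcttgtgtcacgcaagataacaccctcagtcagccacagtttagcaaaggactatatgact
Ctla4, chr1:60908775-60909024: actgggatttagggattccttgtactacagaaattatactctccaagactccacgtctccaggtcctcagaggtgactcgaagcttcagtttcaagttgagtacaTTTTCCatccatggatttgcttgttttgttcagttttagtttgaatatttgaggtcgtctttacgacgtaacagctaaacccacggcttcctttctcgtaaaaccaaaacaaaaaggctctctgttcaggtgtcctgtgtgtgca
Il2ra, chr2:11642542-11642791: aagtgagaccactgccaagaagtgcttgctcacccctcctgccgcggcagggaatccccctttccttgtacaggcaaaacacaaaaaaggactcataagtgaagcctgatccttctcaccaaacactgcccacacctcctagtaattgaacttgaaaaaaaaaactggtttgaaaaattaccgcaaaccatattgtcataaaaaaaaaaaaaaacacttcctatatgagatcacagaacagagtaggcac
The first Foxp3 window has TATAAA beginning 32 bases before the start. In the second the STAT and NFAT letters overlap in 1 run. The Ctla4 window has 1 NFAT match, beginning 145 bases before the start, and the Il2ra window has none of the 5. A match is a description of letters only, and the count tables do not say which start a read came from.

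Foxp3 lies on the X chromosome at 7573644 to 7595245 of GRCm38 (plus strand), by GENCODE annotation. The Flicr gene for a non-coding RNA overlaps it on the same strand, and of the 4708 words of 31 bases in Foxp3 transcripts, 763 (16.2%) are also in Flicr. Reads from that shared part can be placed on either gene, and Flicr had 6 reads in 5 TAS-Seq barcodes, none of which had Foxp3 reads. Ctla4 (chromosome 1, 60887000 to 60915832, plus strand), Tnfrsf18, Tnfrsf4 and Pdcd1 share no such word with another gene. Il2ra is on chromosome 2 at 11642807 to 11693193 (plus strand) and Ikzf2 on chromosome 1 at 69531214 to 69687245 (minus strand), with 1.81% and 0.128% shared words. Tnfrsf4 (chromosome 4, 156013843 to 156016612) and Tnfrsf18 (156026164 to 156028895) are neighbours on the plus strand with 9551 bases between them. In the T gate, 1 TAS-Seq and 1 BD WTA cell was positive for both. Lag3 (chromosome 6, 124904361 to 124911705, minus strand) lies 16139 bases from Cd4. Tigit is on chromosome 16 at 43648867 to 43664146 and Pdcd1 on chromosome 1 at 94038305 to 94052553, both on the minus strand. Lag3 shares 1.65% of its words with 666 other genes, and Tigit 7.58% with 663, so reads from those parts can also be placed elsewhere.

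Positive cells of the 9 genes overlapped. Of the 36 pairs, 19 in TAS-Seq and 20 in BD WTA had at least 1 T-gate cell positive for both, and 12 and 10 had at least 2. Pairs of other genes were not counted, so these numbers are a description. Il2ra and Ikzf2 shared 7 TAS-Seq and 6 BD WTA cells, where the product of their single shares would give 0.725 and 0.805. Ikzf2 and Ctla4 shared as many in BD WTA, 6 cells against a product of 0.46, and 2 in TAS-Seq. Foxp3 and Ctla4 shared 5 and 4 cells against products of 0.204 and 0.245. Il2ra and Tnfrsf18 shared 5 cells in TAS-Seq and 0 in BD WTA, against products of 1.13 and 0.536. In all, 45 TAS-Seq T-gate cells (17.0%, 12.7 to 22.1) and 37 BD WTA ones (14.2%, 10.2 to 19.0) were positive for at least 1 gene (23.4% and 19.1% without thinning), and 16 and 13 of them for 2 or more. In the B gate 16 of 394 (4.06%) and 9 of 324 (2.78%) had at least 1, and 0 and 1 had 2 or more. The overlap was not limited to cells with Foxp3 reads, since 11 and 7 pairs still shared a cell among T-gate cells with 0 Foxp3 reads. Median unthinned depth was 50299.5 and 37782 reads in Foxp3-positive T cells, against 53223 and 42801 in all T-gate cells, so the cells with Foxp3 were on the shallow side of the gate.

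Cells with both Il2ra and Ikzf2 were mostly not Foxp3 cells. Of the 13 such T-gate cells in the 2 libraries, 3 were Foxp3-positive and 10 had no Foxp3 read, and 9 of these 10 were in the neither gate, 1 in the Cd4 gate and 0 in the Cd8 gate. Genes looked up in these 10 cells after their values were seen included Trac, positive in 9, and Il7r, the interleukin-7 receptor gene, in 7. Icos, a co-stimulatory receptor gene, Rora, a nuclear receptor gene, Rgs1, a regulator of G-protein signalling, and the chemokine receptor gene Ccr2 were each positive in 5. In the whole T gate, Il7r was positive in 61.5% of TAS-Seq and 46.7% of BD WTA cells, not far from its share here. Icos was positive there in 4.91% of TAS-Seq and 10.3% of BD WTA cells, Rora in 4.15% and 3.07%, Rgs1 in 5.28% and 4.98% and Ccr2 in 3.77% and 5.75%. All 5 Rora-positive cells were from TAS-Seq. The 2 cells with the highest Il2ra, in TAS-Seq, had 65 and 31 reads of it with 37 and 10 of Ikzf2, and the first also had 29 of Icos, 38 of Rgs1 and 23 of Tnfrsf18. The type of these cells was not tested.

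Pdcd1, Lag3 and Tigit were each positive in 1 to 3 cells of a library. Pdcd1 was positive in 1 T-gate cell of each, both in the neither gate. The TAS-Seq cell had 7 Pdcd1 reads and 60 of Trac, and the BD WTA cell had 50 Pdcd1 reads with 110 of Trdc, 15 of Trac and 20 of Ikzf2. Lag3 was positive in no T-gate cell, which allows up to 1.13% and 1.15%. Its positive cells were an NK-gate cell in each library, with 5 and 11 reads, a B-gate cell of BD WTA with 7 reads beside 50 of Cd79a, and no-gate cells with 5 and 9 reads. The no-gate cell of TAS-Seq had 53 reads of Siglech, a gene of plasmacytoid dendritic cells, with 10 of Cd4. Tigit was positive in a Cd4-gate and a neither cell of TAS-Seq and in a Cd4-gate cell of BD WTA. Each of these 3 was also Ikzf2-positive, with 12, 55 and 43 reads, and had 21, 13 and 59 reads of Maf, a transcription factor of activated T cells. The neither cell of TAS-Seq carried 7 Tigit reads with 28 of Ctla4, 8 of Tnfrsf4 and 4 of Pdcd1, and none of Foxp3. Pooled over gates, Pdcd1 was at 2.08 CPM in T-gate against 0.127 in B-gate cells and at 9.58 against 0, and Tigit at 3.21 against 0.508 and 2.49 against 0.463. Lag3 was at 0.943 against 0.254 CPM in TAS-Seq and 0.192 against 2.93 in BD WTA.

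Other genes of the same pathways were taken as whole lists. Of 20 further regulatory T-cell genes, 13 reached 10 CPM in TAS-Seq and 15 in BD WTA, and 10 and 10 were at least 2-fold higher in T-gate than B-gate cells with 2 and 4 lower. Over all genes, 9.35% in TAS-Seq and 13.9% in BD WTA were higher in the T gate. As with the 9 genes, a gene that reached 10 CPM in a single gate had to be the higher there, so the counts of these lists are a description. Icos was at 51.7 against 0.254 and 112 against 1.08 CPM, and Il2rb, the shared beta chain of the interleukin-2 receptor, at 180 against 3.93 and 292 against 3.24. Swap70, a signalling gene of B cells, went the other way at 10.6 against 519 and 4.21 against 419. Of 18 further inhibitory receptor and exhaustion genes, 14 and 11 were measured. In the T gate 9 and 8 were higher, among them Cd96, Cd5 and Cd160, and 3 and 3 were lower. The co-stimulatory receptors gave 4 of 5 and 5 of 6, with Cd226, the counterpart of Tigit, at 165 against 1.02 and 109 against 0.154. Of 14 ligands of the 9 genes, 6 reached 10 CPM in each library, and 4 and 5 of these were lower in the T gate, where 17.2% of all genes in TAS-Seq and 19.8% in BD WTA were lower. Pvr, the poliovirus receptor bound by Tigit, is named here for its direction, as the 1 ligand called higher in the T gate of TAS-Seq. It was at 38.3 against 13.7 CPM there and at 18.4 against 13.9 in BD WTA, where no ligand was called higher. The class II genes bound by Lag3 were among the lower ones, H2-Aa at 49.3 CPM in T-gate and 4565 in B-gate cells of TAS-Seq and at 4.79 and 6214 in BD WTA. Cd86, bound by Ctla4, was at 7.36 against 42.6 and 4.6 against 35.5. Of 5 measured stress genes of dissociation and thawing, 3 and 4 were lower in the T gate, against the same shares of all genes, with Fosb at 173 against 849 and 172 against 811.

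Between the coreceptor classes these lists were divided. Of the further regulatory genes, 4 were higher and 4 lower in Cd4-gate than Cd8-gate cells of TAS-Seq and 8 higher and 1 lower in BD WTA, of 12 in each. Over all genes, 16.7% were higher and 15.6% lower in TAS-Seq, and 22.9% higher and 19.8% lower in BD WTA. The same limit of the 10 CPM minimum makes these counts a description. Izumo1r, which encodes folate receptor 4 of regulatory and other CD4 T cells, was at 131 against 25.6 CPM and 163 against 39.5, and Cd5, an inhibitory receptor, at 279 against 128 and 163 against 30.7. Ly6c2, a gene of memory CD8 T cells and monocytes, was lower in the Cd4 gate at 53.8 against 572 and 50.8 against 637.

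In the Foxp3 cells, 15 of the 15 further regulatory genes measured in TAS-Seq and 13 of 16 in BD WTA were at least 2-fold higher than in Foxp3-zero cells, with 0 and 1 lower, beside the 30.6% and 25.2% of all genes above. The limit given there holds here as well, since some of these genes reached 10 CPM through the Foxp3 cells alone. Izumo1r was at 1858 against 111 CPM and 838 against 112, and had 5 or more reads in 5 of 6 and 4 of 8 Foxp3 cells. Capg, an actin-capping protein gene, was at 392 against 42.7 and 406 against 40.9, and Nrp1, which encodes neuropilin-1, at 325 against 1.46 and 413 against 17.3, the latter from 1 cell. Lrrc32, whose product GARP holds latent TGF-beta on regulatory cells, had 64 reads in 2 of the 8 BD WTA cells. The ones named here from Izumo1r to Lrrc32 were picked after their values were seen. Of 7 genes of naive T cells, 3 in each library were at least 2-fold lower and none higher, where 12.0% of all genes in TAS-Seq and 18.4% in BD WTA were lower. Lef1 was at 50 against 560 CPM and 225 against 438, Il7r at 467 against 846 and 56.3 against 566, and Tcf7 at 567 against 951 and 93.8 against 881. By the 2-fold rule Lef1 was called in TAS-Seq and not in BD WTA, while Il7r and Tcf7 were called in BD WTA and not in TAS-Seq. Stress genes were higher for 0 of 5 in TAS-Seq with 1 lower, and for 3 of 5 in BD WTA, and their part in the levels of the other genes was not tested.

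Over all T-gate cells, likeness to Foxp3 was ordered among the 6744 genes with at least 5 positive T-gate cells in each library. The measure was the phi coefficient, a correlation of yes-or-no calls over the 265 and 261 cells, and genes were ranked by the lower value of the 2 libraries. Ctla4 came first at 0.67 and 0.48, and Il2ra next at 0.45 and 0.25. In BD WTA alone Ikzf2 stood above Il2ra, at 0.34, with 0.17 in TAS-Seq. Outside the 9 genes the order was Larp1b, Git1, Izumo1r, Map2k4 and Glrx. Izumo1r shared 5 and 4 cells with Foxp3, at 0.35 and 0.21, and the other 4 shared 2 cells in each library, too few to read anything from. For Pdcd1 no such order was made, since 1 T-gate cell of each library was positive. Points of this comparison share a library and its depth, so the coefficients are a description.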

How the data were processed

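Spleen cells of 1 BD Rhapsody cartridge gave a TAS-Seq and a BD WTA library, grouped by the sample labels, with no replicate of either. The deposited tables hold counts, read totals that the authors made for each gene in each barcode without molecular identifiers, so that amplification can set the size of a value. The study describes mapping to the forward strand of mouse transcripts and keeping barcodes over the inflection point of ranked totals. The submitters' processing notes name cutadapt 2.10, Bowtie2 2.4.2, R 3.6.3 and GRCm38, and whether background reads were subtracted from these tables is not given in the sources used here. The described spleen comparison of the study used fresh cells and several libraries, unlike the labels here.

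Barcodes with at least 500 genes and at most 25% mitochondrial reads were kept, and each was thinned without replacement (seed 1) to 20000 reads. A gene listed in 1 table was taken as 0 in the other. A cell with at least 3 of 5 NK markers at 5 or more reads and fewer than 3 T markers was put in the NK gate, then a cell with at least 2 of 6 T markers and fewer than 2 of 5 B markers in the T gate, the reverse in the B gate, and 2 of both in the mixed gate. The T markers were Lck, Trac, Trbc2, Cd3d, Cd3e and Cd3g, the B markers Cd79a, Cd79b, Ms4a1, Cd22 and Ighd, and the NK markers Ncr1, Klrb1c, Klre1, Gzma and Klrk1. Shares have exact binomial (Clopper-Pearson) and levels exact Poisson intervals of 95%. A called difference is at least 2-fold in pooled CPM, with a floor of 3 reads in a group, among genes of at least 10 CPM in either gate, or of at least 1 CPM and reads in 10 cells of either library for the libraries. The thinning and fold rule were checked on simulated data. Scrublet (scanpy 1.11.5) marked 4 TAS-Seq and 6 BD WTA cells as doublets, which were kept. Clusters came from Seurat 5.3.0 and TMM factors from edgeR 4.0.16, both as alternatives only. Other alternatives were no thinning, 10000 reads, 20 other thinnings, other read minimums, 3 markers per gate, 4-fold, means of cell values, all barcodes, and leaving out doublets or the 5 richest cells of a gene.

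The 9 genes and all lists were chosen with earlier results of these data known. Named beside them were the 3 genes of each list with the largest ratio in the same direction in both libraries, and the 5 genes most like Foxp3. Pvr and the genes marked above as picked or looked up after their values were seen were named as well. Of lists whose genes are in no comparison above, erythroid markers did not reach 10 CPM in T-gate or B-gate cells, nor did conventional dendritic markers, while plasma-cell markers were lower in T-gate cells (3 of 3 in each library) and neutrophil markers were not 2-fold apart in TAS-Seq and did not reach 10 CPM in BD WTA. In cells of no gate the summed neutrophil markers were at 40800 and 16210 CPM. Positions are from GENCODE mouse release 21 and promoters from RefSeq, both on GRCm38. A result for 1 gene of the naive T-cell list is not reported here.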

Additional observations from a re-analysis of the deposited data

Results flagged for a closer look

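Lag3 moved in opposite directions between T-gate and B-gate cells in the libraries, with a log2 difference of 1.31 in TAS-Seq and -2.35 in BD WTA (T over B). The difference between the libraries was not tested, and it rests on few reads: Lag3 was detected in 3 T-gate and 2 B-gate cells of TAS-Seq, and in 1 T-gate and 9 B-gate cells of BD WTA, of which 1 B-gate cell had 5 reads or more.

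Reads of the 9 genes also lay in barcodes that the comparisons did not use because they were too shallow or failed the filter, 29 in TAS-Seq and 71 in BD WTA. TAS-Seq had 17 reads of Ctla4 there, all in 1 barcode, and BD WTA 86 reads of Tnfrsf18 in 2. The BD WTA barcodes also held 57 reads of Tnfrsf4, 48 of Ikzf2, 32 of Il2ra, 14 of Lag3 and 13 of Tigit.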

How the results depend on the processing

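Of 109 values of the main results under other settings, 91 were labelled the same and 18 moved. Of 207 values of single genes, 184 were labelled the same and 1 reversed. A share had that label when it lay inside the exact interval of the main value, and a count when it lay within a set ratio of the main count. A log2 ratio had it unless a 2-fold call was lost, reversed or gained in the same direction. The label is therefore wide. It covered 28.6% against 14.3% for TAS-Seq Foxp3-positive cells with Cd4, and 27 pairs against 19. It also covered a Ctla4 log2 ratio between libraries of 0.17 against -0.92. Counts of genes with the larger TAS-Seq share are over all cells, so other gates could not move them. The share of T-gate cells positive for any of the 9 genes was 17.0% in TAS-Seq and 14.2% in BD WTA. Without thinning it was 23.4% and 19.1%, and at a minimum of 10 reads 11.7% and 9.58%. In TAS-Seq it was 12.5% at 10000 reads per cell, 23.4% at a minimum of 2 reads and 12.4% in Seurat clusters, whose named T clusters leave out a 47-cell cluster led by NK genes that holds all 6 Foxp3-positive T-gate cells. That setting left 2 genes that reached 10 CPM and were 2-fold higher in T cells than B cells in TAS-Seq. Without the 5 cells with most reads of each gene, genes that fell under 10 CPM were not counted. Those that met both that minimum and the 2-fold rule were then 3 and 2 of 6 in T-gate over B-gate cells. The count was 0 and 0 in Cd4-gate over Cd8-gate cells, and 1 in Foxp3-positive over Foxp3-zero Cd4-gate cells of BD WTA. TMM scaling put 2 genes 2-fold apart between the libraries in place of 1, adding Ctla4 (log2 -1.0). In T-gate cells alone the Lag3 ratio between libraries reversed, to a log2 of 2.23 from -1.19, and the cause was not tested. Pairs that shared a T-gate cell fell from 19 and 20 to 11 and 10 at a minimum of 10 reads, and to 11 and 7 in cells without Foxp3 reads. The Foxp3 share of Cd4-gate cells ran from 1.89% to 3.64% in TAS-Seq and from 6.67% to 8.33% in BD WTA over the settings that keep the gates on reads, and the share of Foxp3-positive cells with Cd4 from 14.3% to 28.6% and from 62.5% to 66.7%.

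The contrast of Foxp3 cells outside the Cd8 classes, the settings for pairs, and the look at cells with both Il2ra and Ikzf2 were chosen after seeing the data. No paired analysis was possible because there was a single library per method. A count of 0 among all cells of a library allows a share of up to 0.424% in TAS-Seq and 0.465% in BD WTA, a limit set by the number of cells that covers counting error only.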

Other observations

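When each library was clustered in Seurat, the positive T-gate cells of the regulatory genes gathered in 1 cluster, which the 9 genes themselves helped to form, so that these counts are a description with no test. In BD WTA a cluster of 68 cells, 60 of them in the T gate at the common depth, held 8 of the 8 Foxp3-positive T-gate cells, 13 of 14 for Il2ra, 14 of 15 for Ikzf2, 8 of 8 for Ctla4, 5 of 10 for Tnfrsf18 and 3 of 4 for Tnfrsf4. This cluster was mixed, with 15 Cd4-gate, 15 Cd8-gate and 29 neither cells. Against other T cells its leading gene was Trgc2, a constant gene of the gamma-delta receptor, at 233.6 against 0 CPM, followed by Ikzf2, Rgs1, Ccl5 and Ccr2. In TAS-Seq a cluster of 47 cells, which at that depth had 26 T-gate and 17 NK-gate cells, held 6 of 6 for Foxp3, 10 of 12 for Il2ra, 11 of 16 for Ikzf2, 6 of 9 for Ctla4, 7 of 25 for Tnfrsf18 and 3 of 5 for Tnfrsf4. Its leading genes were NK genes such as Gzma and Klrb1c, so it was given no name. Tnfrsf18 was the gene of the 6 with the largest number of positive T-gate cells outside these clusters in both libraries.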
